A study of Mus musculus with 18 samples.

Results

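The comparison described here is the early light transition of the mouse liver, from zeitgeber time (ZT) 1 to ZT5, where ZT counts the hours since lights on. It takes 6 of the 18 livers of the series, all 3 livers at ZT1 against all 3 at ZT5, and every gene of the table. The livers came from WT males of 8 to 9 weeks, kept in 12 h of light and 12 h of dark, and each whole liver is 1 mouse. Both groups shared genotype, sex, age and housing, and differed in the time of harvest by 4 h. From 5 mice per time the study sequenced the 3 with the best RNA, so that the livers compared were selected for RNA quality. Polyadenylated RNA was read as 50-nt single reads, and the values are normalized estimated counts (per 1000000 reads of an effective library size), which are not per gene length and are therefore compared between livers and never between genes.

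The liver clock is a loop of transcription factors. BMAL1 (gene Arntl), with CLOCK or NPAS2, binds E-boxes and drives the Per and Cry genes, whose proteins shut that activity down, and the Nr1d genes, whose REV-ERB proteins silence Arntl, Npas2, Cry1 and Nfil3 through elements that ROR proteins activate. The same E-boxes drive the PAR bZIP factors DBP, TEF and HLF, which act on D-boxes and are opposed there by NFIL3. Hepatocytes use these oscillators to time lipid, bile acid, glucose and drug metabolism, while feeding, body temperature and hormones impose rhythms of their own. ZT1 to ZT5 lies at the start of the rest phase of a nocturnal animal.

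Depth was 10747428 to 14523185 estimated reads in the livers at ZT1 and 11602598 to 23242842 at ZT5, the deepest library being ZT5 replicate 3. Correlations of log2 values were 0.985 to 0.991 between livers of the same time (6 pairs) and 0.978 to 0.985 between times (9 pairs). Hepatocyte genes dominated all 6 livers, with a summed level of 11 hepatocyte markers of 93764 to 109638, and none of the 11 passed limma's test (2 at an unadjusted p under 0.05). Of all 14435 genes tested in limma, 2858 had an unadjusted p under 0.05, the share to set beside such counts. The 12 Kupffer cell markers were all somewhat higher at ZT5 (median log2 fold change 0.37, summed level 192 to 361 at ZT1 and 305 to 408 at ZT5) and so were the 12 markers of sinusoidal endothelium (median 0.45, summed level 250 to 371 against 366 to 435), with 0 of 24 past the threshold in limma, 3 and 8 at an unadjusted p under 0.05, and the largest difference of each list at 0.95 and 0.61. Without ZT1 replicate 1, 3 endothelial markers and 1 Kupffer cell marker rose past the threshold, 1 Kupffer cell marker did so without ZT5 replicate 2, and 3 endothelial markers with each liver scaled to the same total. Without ZT1 replicate 3 the Kupffer cell median was 0.19, with 10 of 12 positive. The part of these cells in the results that follow was not tested. In whole tissue, fewer cells of a type and less RNA per cell cannot be told apart. Of the other markers, 0 of 12 for stellate cells (median 0.14), 0 of 8 for lymphocytes and neutrophils (0.02) and 0 of 5 for red cells (0.37) passed in limma, with 0, 1 and 0 at an unadjusted p under 0.05. The summed level of the red cell markers was 674 in ZT5 replicate 1 and 172 to 407 in the other 5 livers, and that of the lymphocyte and neutrophil markers was 8.92 to 18.2 throughout. The stellate cell markers summed to 397 in ZT5 replicate 1 and 236 to 299 in the other 5 livers. Without ZT5 replicate 1 the medians of the stellate and red cell markers were -0.12 and -0.23. Of the pancreatic markers Ctrb1 was at the lowest value of all 6 livers and Cela1, the 1 tested, was at -0.49. Of 5 cholangiocyte markers (median -0.11), 1 fell, Sox9, which had values of 8.41, 11.05 and 8.08 at ZT1 and 3.04, 4.61 and 2.93 at ZT5 (log2 fold change -1.18, SE 0.19, adjusted p = 0.00744).

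The 3 livers at ZT5 differed from each other in the levels of the clock genes, and the cause was not tested. Over the 18 clock genes described below, ZT5 replicate 3 was the liver farthest from ZT1 for 13 genes and ZT5 replicate 1 the nearest to ZT1 for 12. The root mean square distance of ZT5 replicate 3 on the log2 scale was 0.483 to the mean of the ZT9 livers and 0.657 to the mean of the other ZT5 livers, whereas ZT5 replicates 1 and 2 lay nearest to their own time (0.658 and 0.348, against 1.14 and 0.946 to ZT9). Each liver at ZT1 lay 0.225 to 0.324 from the mean of the other ZT1 livers and at least 1.03 from the mean of any other time. ZT5 replicate 1 also had the lowest summed level of the 20 Mup genes, which encode major urinary proteins, among all 18 livers (25256, against 41975 to 94645 in the others). How far these livers shaped the values that follow is given by leaving out 1 liver at a time.

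In total, 14435 genes were tested and 755 passed (limma on log2(value + 1), Benjamini–Hochberg adjusted p under 0.05), which is 5.23% of the genes. Higher at ZT5 were 386 genes (2.67%) and lower were 369 (2.56%). In all 755 the 3 livers of one time lay wholly above the 3 of the other. Passing the test with 3 against 3 livers favours such a separation, so that it adds nothing to the calls. The groups of some genes that did not pass, such as Per2 and Srebf1, were also apart. The median difference of the genes that passed was 0.69 on the log2 scale and the smallest 0.27, and 82 rose and 74 fell by at least 1. Over all genes the median difference was 0.01. The log2 fold changes are on the log2(value + 1) scale and understate those of genes with values near 0. Rises and falls written as so many fold are another measure, the ratio of the mean deposited values of both times. Without ZT5 replicate 3 the counts were 199 higher and 207 lower, and without ZT5 replicate 1 they came out at the same numbers, 386 and 369, with 604 of the 755 genes among them. Leaving out a ZT1 liver gave 285 and 268 without replicate 1, 143 and 139 without replicate 2, and 196 and 158 without replicate 3. Of the 755 genes, 383 passed in the same direction without ZT5 replicate 3 and 275 without ZT1 replicate 2. The split between rising and falling genes depends on the scaling. The effective library sizes of the authors left sums of 1005655 to 1028014 at ZT1 and 941088 to 969019 at ZT5, and with every liver brought to the same total 663 genes were higher and 253 lower (72.4% of calls higher, against 51.1%), with the median of all genes at 0.08.

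**Figure D1:**
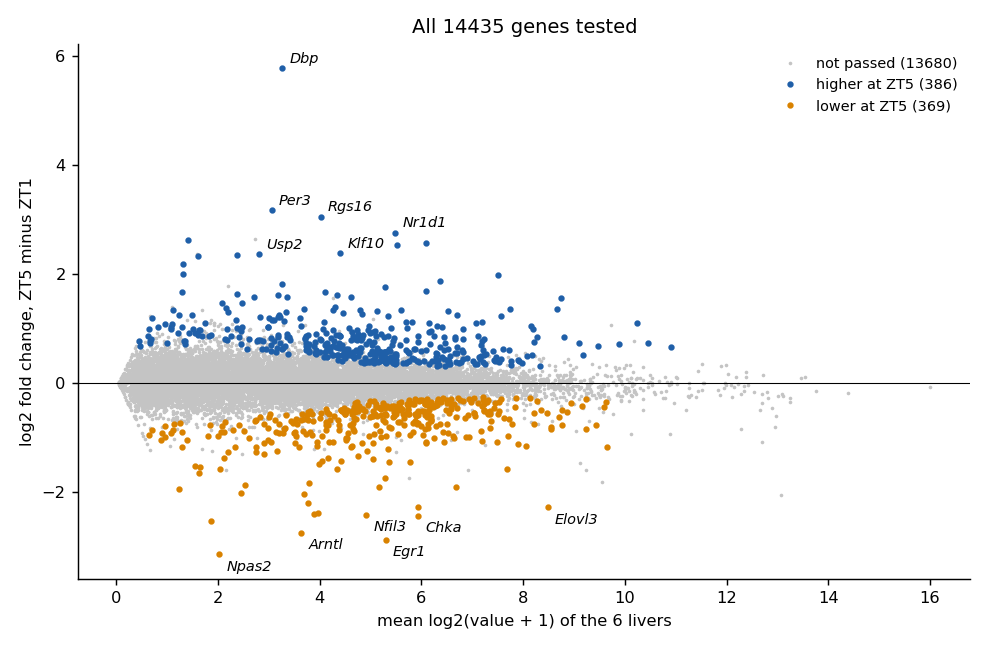
Difference between ZT5 and ZT1 (log2 fold change of value + 1, vertical axis) of the 14435 genes tested, against their mean log2(value + 1) over the 6 livers (horizontal axis), with the 386 genes that were higher in blue, the 369 that were lower in orange and the 13680 others in grey. Dbp stands alone at the top with 5.77, and Npas2 is the lowest at -3.16.

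Sequence letters known as binding sites of clock factors occur in the RefSeq promoters of several clock genes, and the stretches that hold them are shown. For 16 of the 18 clock genes RefSeq (GRCm38.p6) lists a promoter, of which the 250 bases before each listed start were searched on both strands for the E-box CACGTG, for the D-box letters TTATGTAA, TTATGCAA and TTACGTAA, and for the ROR element TAGGTCA. An E-box was found in 5 of the 16 (Per1, Cry1, Ciart, Bhlhe41 and Tef), compared with 9.70% of the 10322 tested genes with a listed promoter, 15.9% of the 283 such genes that were higher at ZT5 and 10.6% of the 254 that were lower. A D-box was in 2 (Per1 and Per3), against 1.56% of all, and a ROR element in Nfil3, against 2.26% of all. The stretches of 60 bases lie at chr11:69098756-69098815 (plus strand) for the Per1 E-box and chr11:69098889-69098948 (plus strand) for its D-box, chr4:151044837-151044896 (minus strand) for Per3, chr10:85185082-85185141 (minus strand) for Cry1, chr3:95882312-95882371 (minus strand) for Ciart, chr6:145865541-145865600 (minus strand) for Bhlhe41, chr15:81802519-81802578 (plus strand) for Tef and chr13:52981040-52981099 (minus strand) for Nfil3. They are written 5′ to 3′ on the strand of the gene with the matched letters in capitals, and in Nfil3 the match is on the opposite strand. No stretch holds a second kind of the motifs searched. RefSeq lists 2 starts each for Per1 and Tef, and the first start with a match is shown. The stretches of both lie inside the gene as annotated by GENCODE, which begins at chr11:69095217 for Per1 and chr15:81802421 for Tef. A match is a description of the letters, and its use by a factor was not measured here.
Per1, E-box: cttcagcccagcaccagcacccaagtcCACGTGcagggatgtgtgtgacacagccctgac
Per1, D-box: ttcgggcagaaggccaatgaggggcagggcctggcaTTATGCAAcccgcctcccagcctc
Per3: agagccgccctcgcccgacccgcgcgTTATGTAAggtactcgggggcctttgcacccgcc
Cry1: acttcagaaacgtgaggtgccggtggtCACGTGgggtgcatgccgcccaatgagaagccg
Ciart: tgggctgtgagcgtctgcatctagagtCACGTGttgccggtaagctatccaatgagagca
Bhlhe41: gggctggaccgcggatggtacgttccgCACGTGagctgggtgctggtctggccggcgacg
Tef: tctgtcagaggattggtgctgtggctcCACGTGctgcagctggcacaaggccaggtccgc
Nfil3: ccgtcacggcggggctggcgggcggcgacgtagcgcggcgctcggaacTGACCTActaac

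All 4 clock activators described were lower at ZT5, 3 of them past the threshold (against 2.56% of all genes), with a median log2 fold change of -1.83. Npas2, a partner of BMAL1 at chr1:39193731-39363236, fell from 10.8, 10.5 and 12.3 to 0.527, 0.236 and 0.354 (log2 fold change -3.16, SE 0.17, adjusted p = 1.87e-05), the largest fall of any gene that passed. Arntl, which encodes BMAL1 at chr7:113207465-113314126, had values of 29.6, 33.3 and 31.8 at ZT1 and 5.71, 5.09 and 1.69 at ZT5 (log2 fold change -2.76, SE 0.29, adjusted p = 0.000905). The 3 livers at ZT1 were close together, whereas ZT5 replicate 3 was far below the other ZT5 livers. Clock, the usual partner of BMAL1, fell less, with 85.04, 73.8 and 72.8 at ZT1 and 40.2, 47.2 and 35.5 at ZT5, a 1.88-fold fall (log2 fold change -0.90, SE 0.11, adjusted p = 0.00196). Rora, a nuclear receptor that activates through ROR elements, was at 77.2, 80.4 and 87.5 at ZT1 and 81.1, 76.7 and 69.6 at ZT5 and its groups overlapped (log2 fold change -0.11, SE 0.08, adjusted p = 0.527).

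The clock repressors moved the other way. Of 10 measured, 8 rose and Cry1 fell, against 2.67% and 2.56% of all genes. Per2 did not pass, and the median was 2.24. Per3 had values of 1.696, 2.32 and 1.39 at ZT1 and 20.4, 19.5 and 34.1 at ZT5, a 13.7-fold rise (log2 fold change 3.17, SE 0.22, adjusted p = 0.000104). Per1 was at 0.727, 1.05 and 2.53 at ZT1 and 5.15, 13.6 and 16.96 at ZT5 (log2 fold change 2.34, SE 0.39, adjusted p = 0.00848). ZT5 replicate 1 was far below the other livers of its time, and the call was lost without ZT1 replicate 2 (adjusted p = 0.0551). Per2, the third member, had 11.04, 13.6 and 11.9 at ZT1 and 14.8, 14.9 and 25.4 at ZT5 (log2 fold change 0.52, SE 0.19, adjusted p = 0.17). The Per2 groups did not overlap, with ZT5 replicate 3 well above the other livers, and the difference missed the threshold after adjustment over all genes.

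The Cry genes, which encode the cryptochrome repressors, went in opposite directions. Cry1 fell 3.99-fold, from 21.97, 28.1 and 26.1 to 5.47, 6.096 and 7.51 (log2 fold change -1.84, SE 0.14, adjusted p = 0.000188), and its promoter is among those with an E-box shown above. Cry2 rose 1.81-fold, from 17.8, 19.3 and 21.03 to 32.8, 37.6 and 34.97 (log2 fold change 0.83, SE 0.10, adjusted p = 0.00184). Neither gene had overlapping groups, and the lowest mean of Cry1 over the 6 times of day was at ZT5 itself.

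Both REV-ERB genes rose together. Nr1d1 was at 17.002, 12.5 and 20.4 at ZT1 and 119, 142 and 91.6 at ZT5, a 7.04-fold rise (log2 fold change 2.75, SE 0.18, adjusted p = 8.35e-05), and had its highest mean of the day at ZT5. Nr1d2 was at 17.9, 16.6 and 20.4 at ZT1 and 97.3, 121 and 112 at ZT5 (log2 fold change 2.53, SE 0.11, adjusted p = 4.72e-06), a rise that was even over the 3 livers. For Nr1d1 the order of the ZT5 livers differed from that of the Per genes, with ZT5 replicate 3 the lowest at 91.6.

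The remaining repressors, Ciart and the DEC genes, which antagonize BMAL1 activity, varied widely between the livers at ZT5. Ciart was at 0.104, 0.0455 and 0.43 at ZT1 and 2.31, 3.36 and 9.35 at ZT5 (log2 fold change 2.17, SE 0.36, adjusted p = 0.00869), where the ZT1 values stand for 0 to 4 reads, and the call was lost without ZT1 replicate 2 (adjusted p = 0.0553). Bhlhe41 (DEC2) was at 0.173, 0.409 and 0.526 at ZT1 and 2.39, 8.19 and 9.07 at ZT5 (log2 fold change 2.32, SE 0.36, adjusted p = 0.00629), on 2 to 5 reads per liver at ZT1. Bhlhe40 (DEC1) was at 33.3, 43.7 and 52.7 at ZT1 and 92.9, 196 and 211 at ZT5 (log2 fold change 1.86, SE 0.28, adjusted p = 0.00474). In all 3 genes ZT5 replicate 1 was the lowest of its group and ZT5 replicate 3 the highest.

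Of the PAR bZIP group, Dbp, Tef and Hlf rose and their antagonist Nfil3 fell, against 2.67% and 2.56% of all genes. The median over the 4 genes was 1.71. Dbp, at chr7:45705088-45710203, had values of 0.338, 0.439 and 0.148 at ZT1 and 60.3, 68.3 and 83.2 at ZT5 (log2 fold change 5.77, SE 0.16, adjusted p = 1.62e-07). The groups were far apart, and its values at ZT1 rest on 1 to 5 reads per liver and those at ZT5 on 743 to 1998. Tef had 27.03, 25.4 and 29.2 at ZT1 and 151, 148 and 203 at ZT5, a 6.14-fold rise (log2 fold change 2.56, SE 0.12, adjusted p = 8.92e-06). Hlf, the third factor, had 33.05, 27.97 and 27.3 at ZT1 and 46.8, 53.6 and 62.7 at ZT5, a 1.85-fold rise (log2 fold change 0.86, SE 0.12, adjusted p = 0.00341). Nfil3 fell 5.75-fold, from 57.5, 77.2 and 73.3 to 12.8, 13.6 and 9.84 (log2 fold change -2.43, SE 0.14, adjusted p = 4.04e-05). These 4 calls, like those of Arntl, Npas2, Clock, Per3, Cry1, Cry2, Nr1d1, Nr1d2, Bhlhe40 and Bhlhe41, were kept when any 1 of the 6 livers was left out.

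**Figure D2:**
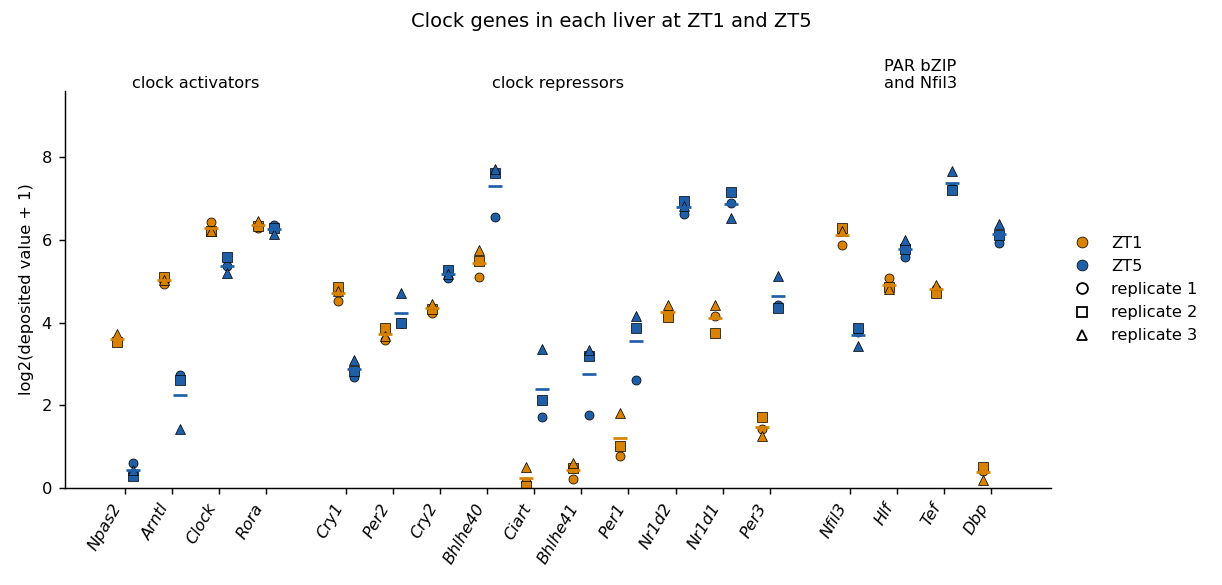
Level of the 18 clock genes, as log2(value + 1), in each liver at ZT1 (orange) and ZT5 (blue), with replicates 1, 2 and 3 as circle, square and triangle and the mean of 3 livers as a line. The groups are apart for the 16 genes that passed, overlap for Rora, and in Ciart, Bhlhe41 and Per1 spread more widely at ZT5 than in Nr1d2 or Cry2.

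Among 14 further clock modifiers and known E-box outputs, 4 rose and 0 fell, against 2.67% and 2.56% of all genes, with a median of 0.10. Usp2, a ubiquitin protease that acts on clock proteins, had 2.46, 2.32 and 1.58 at ZT1 and 9.2003, 13.9 and 24.9 at ZT5 (log2 fold change 2.35, SE 0.30, adjusted p = 0.0022). Wee1, the kinase that holds cells before mitosis, was at 1.83, 1.68 and 1.86 at ZT1 and 4.58, 6.16 and 8.26 at ZT5 (log2 fold change 1.36, SE 0.20, adjusted p = 0.0047). Por, which donates electrons to all microsomal cytochromes P450, rose 2.14-fold, from 84.9, 79.7 and 111 to 217, 156 and 218 (log2 fold change 1.09, SE 0.15, adjusted p = 0.00337). Lpin1, a phosphatidate phosphatase and coregulator of fat burning, had 31.4, 33.7 and 45.4 at ZT1 and 78.7, 62.7 and 80.2 at ZT5 (log2 fold change 1.00, SE 0.14, adjusted p = 0.00406) but failed with all 18 livers in the fit (adjusted p = 0.211). The other 10 members lay between -0.34 and 0.33 on the log2 scale and did not pass.

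Over all 6 times, ZT5 was the daily maximum for 51.0% of the rising genes and an intermediate point for the others. Of the 386 risers 197 had their highest mean at ZT5, 139 at ZT9, 44 at ZT13 and 6 at ZT17. Of all 14435 genes tested, 21.0% had their highest mean at ZT5, 15.98% at ZT9, 18.8% at ZT13 and 16.8% at ZT17. Of the 369 fallers 159 had their highest mean at ZT1, 69 at ZT21, 103 at ZT17 and 38 at ZT13, and the lowest mean was at ZT9 for 171, at ZT5 for 137 and at ZT13 for 53. Nr1d1, Bhlhe40 and Bhlhe41 had their highest mean at ZT5, Dbp, Tef, Nr1d2, Ciart, Per1, Per3 and Cry2 at ZT9, and Hlf and Per2 at ZT13. Since ZT1 and ZT5 chose these genes, the maxima are a description.

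**Figure D3:**
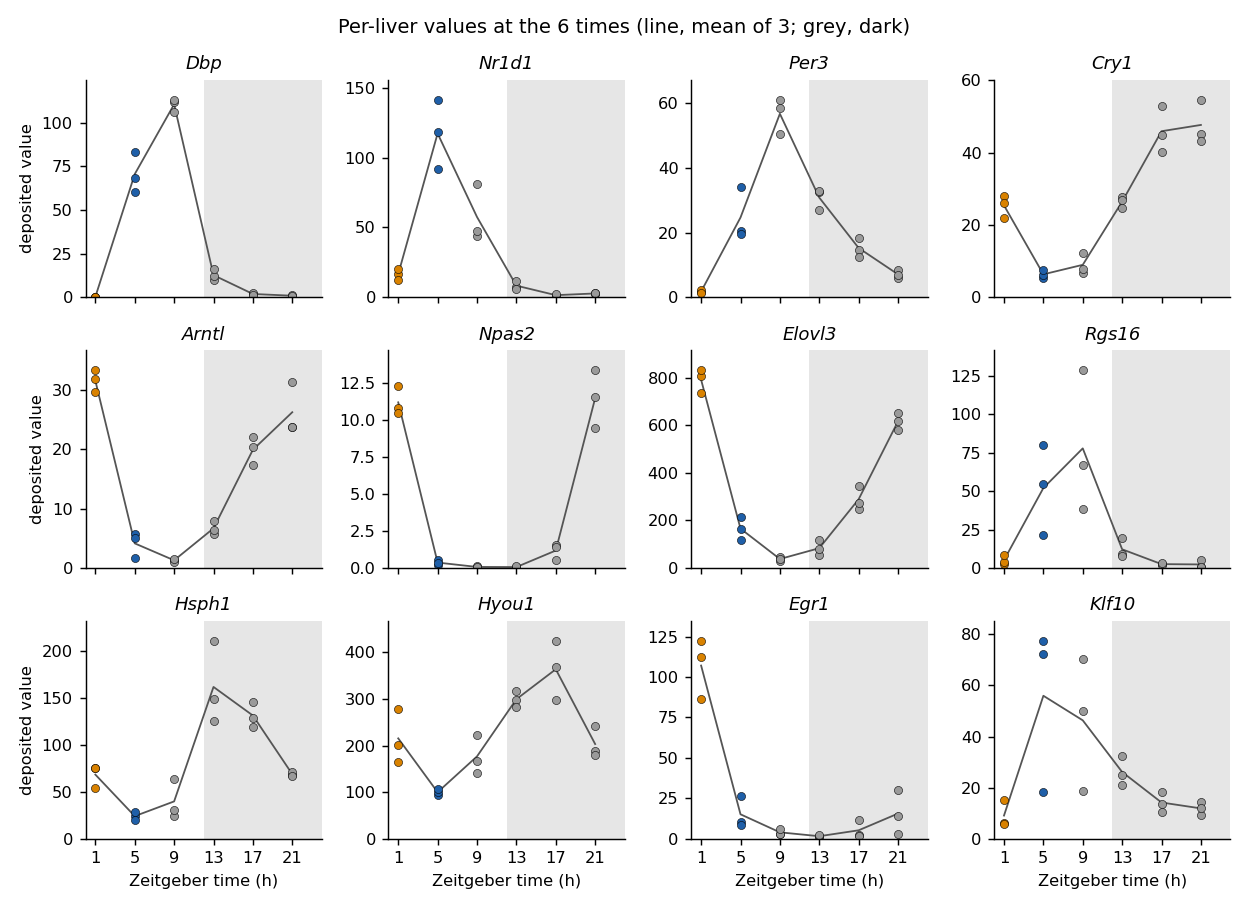
Deposited values (linear, from 0) of 12 genes in all 18 livers against zeitgeber time in hours, with the livers at ZT1 in orange and at ZT5 in blue, the mean of 3 as a line and the 12 h of dark shaded. Arntl, Npas2, Elovl3 and Egr1 drop between ZT1 and ZT5, Nr1d1 peaks at ZT5, Dbp and Per3 continue to ZT9, and Hsph1 and Hyou1 are at their lowest mean at ZT5.

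Beyond the clock genes, the largest rises were those of Rgs16, Klf10 and Gm20547. Rgs16, which speeds the shutdown of G protein signals, had 2.595, 4.23 and 8.65 at ZT1 and 21.4, 79.7 and 54.9 at ZT5 (log2 fold change 3.04, SE 0.45, adjusted p = 0.00474), with ZT5 replicate 1 far below the other livers of its time. Klf10, a zinc finger repressor that responds to TGF-beta, had 6.33, 5.68 and 15.2 at ZT1 and 18.4, 72.1 and 77.4 at ZT5 (log2 fold change 2.37, SE 0.50, adjusted p = 0.0259). The highest liver at ZT1 nearly reached the lowest at ZT5, and the call was lost without ZT1 replicate 1, ZT1 replicate 2, ZT5 replicate 2 or ZT5 replicate 3 (adjusted p = 0.0753 to 0.127). Gm20547 was at 0.0346, 0.0455 and 0.162 at ZT1 and 5.46, 2.96 and 10.1 at ZT5 (log2 fold change 2.61, SE 0.32, adjusted p = 0.00193), on 0 to 1.19 estimated reads per liver at ZT1. It lies at chr17:34856412-34882042 over the complement genes Cfb and C2 on the same strand, so that the division of reads among the 3 is uncertain.

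Among the largest falls outside the clock were those of Egr1, Pitx3, Chka, Ppard, Elovl3, Igfbp1, Cml5 and Pdk4. Egr1, an immediate early factor, fell 7.07-fold from 112, 122 and 86.6 to 26.4, 10.5 and 8.55 (log2 fold change -2.89, SE 0.32, adjusted p = 0.00125). Pitx3, a homeodomain factor, had 6.89, 6.87 and 9.89 at ZT1 and 0.689, 0.505 and 0.354 at ZT5 (log2 fold change -2.54, SE 0.19, adjusted p = 0.000159). It lies at chr19:46135685-46148326 (minus strand) and overlaps the end of Elovl3 at chr19:46131897-46135694 (plus strand), whose values are far higher. Its reads may therefore come in part from Elovl3, which was not tested, and the falls of both genes may not be independent. Chka, the kinase that opens phosphatidylcholine synthesis, had 145, 125 and 158 at ZT1 and 49.4, 20.2 and 15.96 at ZT5 (log2 fold change -2.45, SE 0.32, adjusted p = 0.00273), with ZT5 replicate 1 between the other ZT5 livers and ZT1.

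In the lipid branch of this group, Ppard, a nuclear receptor for fatty acids, fell 5.98-fold from 31.5, 41.8 and 32.8 to 5.55, 7.04 and 5.14 (log2 fold change -2.39, SE 0.15, adjusted p = 5.73e-05). Elovl3, which elongates saturated fatty acids, had 806, 831 and 737 at ZT1 and 164, 216 and 117 at ZT5 (log2 fold change -2.29, SE 0.18, adjusted p = 0.000188). Pdk4, the kinase that blocks entry of pyruvate into the citric acid cycle, had 18.1, 29.3 and 30.4 at ZT1 and 7.03, 5.74 and 3.69 at ZT5 (log2 fold change -2.05, SE 0.23, adjusted p = 0.00137). All 3 were at their lowest mean at ZT5 or ZT9. Igfbp1, a binder of insulin-like growth factors that fasting raises and insulin lowers, had 95.96, 125 and 198 at ZT1 and 48.9, 40.2 and 9.18 at ZT5 (log2 fold change -2.29, SE 0.51, adjusted p = 0.0319), and the call was lost when any 1 of the ZT1 livers was left out (adjusted p = 0.0581 to 0.139). Cml5, an N-acetyltransferase with close copies next to it, had 25.4, 33.9 and 26.7 at ZT1 and 2.899, 6.24 and 7.93 at ZT5 (log2 fold change -2.22, SE 0.27, adjusted p = 0.00184), and its reads may be shared with them.

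In the lists that follow, the 3 members with the lowest p were named by rule, and other members were named after their values were seen. The chaperones that heat shock factor controls, which refold proteins and follow body temperature, were lower at ZT5. Of 23 measured, 22 were lower at ZT5, 14 of them past the threshold (against 2.56% of all genes), and none rose, with a median of -0.47. Hsph1, an HSP110 nucleotide exchange factor, fell 2.83-fold from 54.1, 75.3 and 75.9 to 24.2, 20.04 and 28.2 (log2 fold change -1.46, SE 0.15, adjusted p = 0.000901). Hsp90aa1, the inducible HSP90, had 211, 285 and 302 at ZT1 and 121, 128 and 119 at ZT5 (log2 fold change -1.10, SE 0.12, adjusted p = 0.00125). Chordc1, an HSP90 cochaperone, had 48.6, 46.97 and 51.1 at ZT1 and 28.1, 22.2 and 27.7 at ZT5 (log2 fold change -0.89, SE 0.10, adjusted p = 0.00156). The other 11 that fell were Stip1 (-0.76), Fkbp4 (-0.61), Hspa1b (-0.98), Hspb1 (-0.74), Hspa4l (-0.61), Ahsa2 (-0.53), Bag3 (-0.52), Cacybp (-0.48), Dnaja1 (-0.44), Ahsa1 (-0.39) and Hspa4 (-0.28), all as log2 fold changes. The constitutive Hsp90ab1 was at 739, 819 and 846 at ZT1 and 804, 632 and 627 at ZT5, with overlapping groups (log2 fold change -0.23, SE 0.11, adjusted p = 0.303).

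The median of this list held under other settings and the number of calls did not. Over 16 other settings the median of the 23 chaperones stayed between -0.52 and -0.38 while 5 to 15 members passed, 9 of them without ZT5 replicate 3 and 5 without ZT1 replicate 2 or ZT1 replicate 3. ZT1 replicate 1 had the lowest Hsph1 and Hsp90aa1 of its group and still lay above every liver at ZT5. The motif TTCNNGAA of heat shock factor was found before the start in 4 of 19 of these genes with a listed promoter, against 7.07% of all 10322 (Dnajb4, Hspd1, Hspe1 and Hsph1). Of these 4 genes Hsph1 fell, and Dnajb4, Hspd1 and Hspe1 did not pass. Hspd1 and Hspe1 start next to each other on opposite strands, and the same matches were read for both. Of the cold-inducible RNA-binding proteins, which respond to temperature in the opposite sense, Rbm3 rose 1.85-fold from 24.7, 23.4 and 25.5 to 38.6, 47.1 and 50.4 (log2 fold change 0.85, SE 0.11, adjusted p = 0.00221). Cirbp was at 12.98, 15.96 and 16.6 at ZT1 and 15.2, 20.2 and 12.9 at ZT5 and its groups overlapped (log2 fold change 0.07, SE 0.16, adjusted p = 0.869).

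Of 33 genes of protein folding in the endoplasmic reticulum (ER) and of the unfolded protein response, 8 fell and none rose, against 2.56% lower and 2.67% higher of all genes. The other 25 did not pass, 29 of the 33 were negative, and the median was -0.28. Manf, a secreted ER stress protein, had 76.4, 103 and 122 at ZT1 and 48.6, 38.6 and 50.9 at ZT5 (log2 fold change -1.09, SE 0.16, adjusted p = 0.00469). Hyou1, the HSP110 of the ER, had 165, 202 and 279.5 at ZT1 and 92.95, 101 and 106 at ZT5 (log2 fold change -1.07, SE 0.16, adjusted p = 0.00475). Syvn1, the ubiquitin ligase of ER-associated degradation, had 87.8, 107 and 133 at ZT1 and 57.6, 47.2 and 53.2 at ZT5 (log2 fold change -1.03, SE 0.14, adjusted p = 0.00309). In these 3 genes ZT1 replicate 3 was the highest of all 6 livers and the ZT5 livers were close together. Hspa5, the central ER chaperone BiP, had 764, 904 and 1084 at ZT1 and 544, 477 and 572 at ZT5 (log2 fold change -0.78, SE 0.13, adjusted p = 0.00824). Creld2, Dnajb9, Atf4 and Edem1 completed the 8, with log2 fold changes of -1.06, -0.72, -0.47 and -0.31. Over the 16 other settings 3 to 11 passed, the lowest count without ZT1 replicate 2, 6 without ZT5 replicate 3, and the median stayed between -0.35 and -0.20.

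The ER stress element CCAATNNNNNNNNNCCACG, which ATF6 with NF-Y recognizes, was found before the start of 9 of 28 genes of this list with a listed promoter, against 0.174% of the 10322 genes. Of these 9, Hspa5, Syvn1 and Creld2 fell. The other 6 did not pass and had log2 fold changes of -0.05 for Hsp90b1, -0.21 for Calr, -0.21 for Canx, -0.25 for Derl3, -0.28 for Dnajc3 and -0.39 for Pdia6. The stretches of the 3 genes that fell are shown with the 19 letters in capitals, from chr2:34772004-34772063 (plus strand) for Hspa5, chr19:6046511-6046570 (plus strand) for Syvn1 and chr15:88819499-88819558 (plus strand) for Creld2. They are from the same RefSeq promoters and in Creld2 the match is on the opposite strand.
Hspa5: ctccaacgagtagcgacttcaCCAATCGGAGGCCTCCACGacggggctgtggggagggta
Syvn1: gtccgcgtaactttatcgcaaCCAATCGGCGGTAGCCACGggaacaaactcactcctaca
Creld2: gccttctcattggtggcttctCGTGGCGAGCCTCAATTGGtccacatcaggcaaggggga

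Of 23 immediate early genes measured, which answer growth and stress signals within minutes, 5 fell and 2 rose (median -0.12). Of all genes 2.56% fell and 2.67% rose. Beside Egr1, Fos had 3.15, 2.96 and 2.06 at ZT1 and 0.608, 0.775 and 0.52 at ZT5 (log2 fold change -1.18, SE 0.18, adjusted p = 0.00603). Jun, its partner in AP-1, had 30.2, 23.8 and 22.6 at ZT1 and 7.498, 11.2 and 17.5 at ZT5 (log2 fold change -1.08, SE 0.24, adjusted p = 0.0326). Ier2 and Zfp36, which destabilizes inflammatory mRNAs, fell by 0.58 and 0.59 on the log2 scale. The 2 that rose were Klf10, given above, and Klf9, a target of the glucocorticoid receptor, with 61.2, 53.001 and 50.04 at ZT1 and 74.6, 90.3 and 83.8 at ZT5 (log2 fold change 0.59, SE 0.10, adjusted p = 0.00902). With ZT5 replicate 3 left out, 3 fell and 1 rose.

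Of 18 glucocorticoid response genes 3 rose, namely Per1, Klf9 and Mt1, and 1 fell (median 0.15), against 2.67% and 2.56% of all genes. Mt1, a metal-binding metallothionein, had 2.11, 1.501 and 1.19 at ZT1 and 7.903, 3.47 and 7.76 at ZT5 (log2 fold change 1.45, SE 0.27, adjusted p = 0.0164). The well-known targets Fkbp5 and Tat and the receptor gene Nr3c1 did not pass, at 0.25, -0.13 and 0.02. The faller was Cdkn1a, which encodes the cell cycle inhibitor p21, with 7.37, 4.05 and 7.79 at ZT1 and 1.99, 0.909 and 1.39 at ZT5 (log2 fold change -1.59, SE 0.25, adjusted p = 0.00671). Without ZT1 replicate 2 none of the 18 rose past the threshold and without ZT1 replicate 3 only 1 did.

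Of 16 genes of the actin and tubulin cytoskeleton and of serum response factor, 5 fell and 0 rose (median -0.12). Of all genes 2.56% fell and 2.67% rose. All 5 that fell encode actin or tubulin chains. Tubb2a fell 3.77-fold, from 175, 215 and 212 to 64.9, 55.5 and 39.4 (log2 fold change -1.92, SE 0.16, adjusted p = 0.000294). Tubb4b had 140.2, 148 and 147 at ZT1 and 81.7, 104 and 92.5 at ZT5 (log2 fold change -0.65, SE 0.09, adjusted p = 0.00365). Tuba1c had 88.7, 91.1 and 97.2 at ZT1 and 50.3, 53.4 and 67.7 at ZT5 (log2 fold change -0.69, SE 0.11, adjusted p = 0.00626). Actb, often used as a reference gene, was at 380.5, 421 and 363 at ZT1 and 318, 269 and 235 at ZT5 (log2 fold change -0.51, SE 0.11, adjusted p = 0.0305). Tuba4a fell by 0.52 on the log2 scale. The number of genes of the list that fell was 3 without ZT5 replicate 3, and also without ZT1 replicate 2 or ZT1 replicate 3.

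Of 23 genes of cholesterol synthesis and uptake described here 1 fell, a share near the 2.56% of all genes, with a median of -0.14. Insig1, the sterol sensor that retains SREBP in the ER, fell, with 569, 551 and 563 at ZT1 and 454, 363 and 349 at ZT5 (log2 fold change -0.54, SE 0.10, adjusted p = 0.0174). Stard4, a sterol carrier, was at 143, 136 and 138 at ZT1 and 158, 176 and 211 at ZT5 (log2 fold change 0.37, SE 0.10, adjusted p = 0.0677) and did not pass. The call of Insig1 was lost in 7 of 16 settings, 5 of them the omission of 1 liver. In lipogenesis (19 genes, median 0.06) Insig2, a second INSIG gene, fell 2.18-fold from 320.5, 370.3 and 367 to 182, 171 and 131 (log2 fold change -1.13, SE 0.12, adjusted p = 0.000905). Fads2, the delta-6 desaturase, had 242, 213 and 235 at ZT1 and 546, 311 and 340.3 at ZT5 (log2 fold change 0.75, SE 0.18, adjusted p = 0.0413), and the call was lost without ZT5 replicate 3 or any 1 ZT1 liver (adjusted p = 0.0629 to 0.172). Srebf1, the lipogenic master factor, was at 278, 293 and 283 at ZT1 and 326, 366 and 446 at ZT5 (log2 fold change 0.40, SE 0.11, adjusted p = 0.0657) and did not pass. It passed with quality weights, the same total in each liver, quantile normalization, and without ZT5 replicate 1 (adjusted p = 0.0116 to 0.0356).

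Of 23 genes of bile acid synthesis and transport 4 rose and 0 fell, against 2.67% and 2.56% of all genes, with a median of -0.03. Abcg5 and Abcg8 are neighbours whose products together form the sterol pump of the canalicular membrane. Abcg5 had 39.6, 53.9 and 50.8 at ZT1 and 133, 89.2 and 90.6 at ZT5 (log2 fold change 1.09, SE 0.16, adjusted p = 0.00473). Abcg8 had 48.8, 68.2 and 60.5 at ZT1 and 137, 119 and 103 at ZT5 (log2 fold change 1.01, SE 0.13, adjusted p = 0.00276), and in both genes ZT5 replicate 1 was the highest liver. Klb, the coreceptor of FGF15 and FGF21, rose 1.88-fold from 19.4, 15.96 and 21.9 to 33.6, 38.3 and 35.9 (log2 fold change 0.89, SE 0.12, adjusted p = 0.00316). Abcc2, the canalicular pump of conjugates, was at 472, 464 and 519 at ZT1 and 602, 693 and 781 at ZT5 (log2 fold change 0.51, SE 0.11, adjusted p = 0.0242). Cyp7a1, the rate-limiting enzyme of bile acid synthesis, was at 74.4, 32.5 and 50.04 at ZT1 and 62.8, 37.2 and 118 at ZT5 (log2 fold change 0.39, SE 0.38, adjusted p = 0.625), with overlapping groups.

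In fatty acid oxidation 3 of 35 rose and 2 fell (median 0.02), against 2.67% and 2.56% of all genes. Ppara, the nuclear receptor that switches on fat burning, had 71.2, 61.6 and 61.8 at ZT1 and 115, 114 and 119 at ZT5 (log2 fold change 0.83, SE 0.08, adjusted p = 0.000537), an even rise in all 3 livers. Cpt1a, which admits long-chain fatty acids to mitochondria, had 221, 193 and 206 at ZT1 and 509, 362 and 373 at ZT5 (log2 fold change 0.98, SE 0.13, adjusted p = 0.00223). Acaa1a, a peroxisomal thiolase, rose by 0.44 on the log2 scale. The fallers were Pdk4, given above, and Cyp4a12a, a fatty acid hydroxylase, with 628, 524 and 548 at ZT1 and 301, 391 and 307 at ZT5 (log2 fold change -0.77, SE 0.12, adjusted p = 0.00475).

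Of 20 genes of glycolysis and glycogen 3 rose and 1 fell (median -0.08), against 2.67% and 2.56% of all genes. Gys2, the liver glycogen synthase, rose 2.17-fold from 90.2, 93.99 and 113 to 198, 216 and 231 (log2 fold change 1.12, SE 0.10, adjusted p = 0.00036). Slc2a2, the glucose transporter GLUT2, had 214, 218 and 259 at ZT1 and 320.2, 432 and 505 at ZT5 (log2 fold change 0.84, SE 0.15, adjusted p = 0.0122). Pfkfb3, which makes an activator of glycolysis, had 4.61, 5.701 and 4.17 at ZT1 and 8.94, 9.27 and 19.8 at ZT5 (log2 fold change 1.15, SE 0.27, adjusted p = 0.0377). Ppp1r3b, which targets a phosphatase to glycogen, fell from 313, 258 and 304 to 110.4, 166 and 171 (log2 fold change -0.98, SE 0.15, adjusted p = 0.00629). Of 15 gluconeogenic genes 3 rose and 0 fell, against the same shares of all genes, with a median of 0.28. Got1, the cytosolic aspartate aminotransferase, had 109, 118 and 113 at ZT1 and 203, 207 and 187 at ZT5 (log2 fold change 0.80, SE 0.07, adjusted p = 0.000417), and its call failed with all 18 livers in the fit (adjusted p = 0.0861). Sds, serine dehydratase, had 52.7, 70.5 and 79.3 at ZT1 and 200.3, 143 and 139.8 at ZT5 (log2 fold change 1.24, SE 0.17, adjusted p = 0.00296). Ppargc1a, the coactivator PGC-1alpha, had 6.06, 5.14 and 6.26 at ZT1 and 12.1, 10.9 and 10.7 at ZT5 (log2 fold change 0.84, SE 0.14, adjusted p = 0.0073). Pck1 and G6pc, the defining enzymes of the pathway, were at 1.06 and -0.70 with overlapping groups (adjusted p = 0.159 and 0.495). Without ZT1 replicate 1 or ZT1 replicate 2, 1 gene of glycolysis and glycogen rose past the threshold in place of 3.

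Among 20 genes of insulin signalling and FOXO targets 5 fell and 2 rose (median 0.02), against 2.56% and 2.67% of all genes. Ddit4, an inhibitor of mTORC1, had 5.64, 7.503 and 6.93 at ZT1 and 2.31, 2.39 and 2.35 at ZT5 (log2 fold change -1.19, SE 0.16, adjusted p = 0.00309). Irs2, the insulin receptor substrate that fasting raises, was at 19.6, 38.2 and 44.3 at ZT1 and 17.7, 15.7 and 12.8 at ZT5 (log2 fold change -1.03, SE 0.25, adjusted p = 0.0485), with ZT1 replicate 1 near the ZT5 level. Eif4ebp3 and Igf1 fell by 0.69 and 0.37 on the log2 scale beside Igfbp1. The risers were Trib3, a pseudokinase that binds AKT, with 1.56, 4.23 and 3.202 at ZT1 and 9.36, 13.2 and 8.89 at ZT5 (log2 fold change 1.56, SE 0.26, adjusted p = 0.0083), and Foxo3, a FOXO factor itself, with 26.4, 37.4 and 33.6 at ZT1 and 47.2, 46.7 and 51.5 at ZT5 (log2 fold change 0.58, SE 0.12, adjusted p = 0.0258). The call of Foxo3 was lost without ZT1 replicate 3, ZT5 replicate 2 or ZT5 replicate 3 and without the mean-variance trend (adjusted p = 0.0534 to 0.0950). In place of 5, 1 to 3 genes fell in 10 of the 16 other settings, among them 2 without ZT5 replicate 3, 2 without ZT1 replicate 1, and 1 without ZT1 replicate 2 or ZT1 replicate 3.

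Of 37 genes of the urea cycle and amino acid catabolism 4 rose, 1 fell and 27 were positive, with a median of 0.14. Over all 14435 genes 2.67% rose, 2.56% fell and 7478 were positive, with a median of 0.01. Besides Got1 and Sds, Oat, ornithine aminotransferase, had 365, 309 and 328 at ZT1 and 582, 451 and 822 at ZT5 (log2 fold change 0.84, SE 0.18, adjusted p = 0.0267). Mat1a, which makes S-adenosylmethionine, had 1136, 963 and 1194 at ZT1 and 1969.7, 1425 and 2144 at ZT5 (log2 fold change 0.73, SE 0.16, adjusted p = 0.0269). Gldc, the glycine cleavage enzyme, fell by 0.57 on the log2 scale. Oat was highest in ZT5 replicate 3, and its call was lost without any 1 ZT1 liver (adjusted p = 0.0578 to 0.132). Of the markers of zonation, 2 of 12 pericentral genes were higher, Oat and Slc1a2, and 1 of 12 periportal genes, Sds, with medians of 0.08 and 0.29. Slc1a2, a glutamate transporter, had 85.3, 70.7 and 71.3 at ZT1 and 101, 141 and 164 at ZT5 (log2 fold change 0.81, SE 0.16, adjusted p = 0.0188). This call was lost without the trend and without ZT1 replicate 2, ZT1 replicate 3, ZT5 replicate 2 or ZT5 replicate 3 (adjusted p = 0.0551 to 0.102). In the list of cytochromes P450, their receptors and heme synthesis 2 of 35 rose, Por and Cyp2a5 (median -0.04), a share near the 2.67% of all genes. Cyp2a5, the coumarin hydroxylase, had 129.7, 125 and 143 at ZT1 and 235, 289.5 and 579 at ZT5 (log2 fold change 1.35, SE 0.26, adjusted p = 0.0178). Its call was lost without the mean-variance trend and without any 1 ZT1 liver (adjusted p = 0.0607 to 0.0937). Cyp2a5 is nearly identical to Cyp2a4, so that its reads may be shared.

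Of all genes 2.67% rose and 2.56% fell, the shares to set beside the next 3 lists. Of 31 autophagy genes 4 rose and 0 fell, around a median of 0.00. Ulk1, the kinase that starts autophagosomes, had 53.3, 54.1 and 59.9 at ZT1 and 108, 109 and 90.2 at ZT5 (log2 fold change 0.86, SE 0.09, adjusted p = 0.001). Gabarapl1, an ATG8 homologue of the autophagosome membrane, had 220.5, 253 and 254 at ZT1 and 346, 349.7 and 338 at ZT5 (log2 fold change 0.51, SE 0.08, adjusted p = 0.00603). Bnip3, a mitophagy receptor, had 123, 123 and 132 at ZT1 and 164, 169 and 203 at ZT5 (log2 fold change 0.50, SE 0.09, adjusted p = 0.0132), and Uvrag was at 0.38. Of 30 cell cycle and p53 response genes (median 0.02) Wee1 and Gadd45a rose, the latter by 0.81, and Cdkn1a, Btg1 and Ccng2 fell, Btg1 by 0.73. Ccng2, an atypical cyclin induced by FOXO factors, fell from 23.4, 27.2 and 30.5 to 13.98, 12.7 and 9.93 (log2 fold change -1.09, SE 0.14, adjusted p = 0.00276). Of 24 NRF2 and glutathione genes 3 fell (median -0.20), first Gclc, the limiting enzyme of glutathione synthesis, with 459, 569.7 and 479 at ZT1 and 269, 313 and 252 at ZT5 (log2 fold change -0.85, SE 0.11, adjusted p = 0.00223). Gstm3, a glutathione transferase, was at 67.9, 85.6 and 64.4 at ZT1 and 57.4, 41.2 and 47.8 at ZT5 (log2 fold change -0.57, SE 0.14, adjusted p = 0.0443) and Gsr, which recycles glutathione, at -0.31. The call of Gstm3 was lost in 10 and that of Gsr in 9 of the 16 settings.

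Few genes of protein synthesis passed, and of all genes 2.67% rose and 2.56% fell. Of 80 genes listed by symbol as cytosolic ribosomal proteins 1 fell, the paralog Rpl7l1, and the other 79 did not pass (median -0.01). Rpl7l1, a paralog of Rpl7, had 65.4, 64.8 and 66.3 at ZT1 and 48.4, 51.1 and 48.7 at ZT5 (log2 fold change -0.40, SE 0.07, adjusted p = 0.0117). Of 77 mitochondrial ribosomal proteins and 86 subunits of oxidative phosphorylation 0 passed in limma (medians -0.08 and -0.05, 10 and 5 at an unadjusted p under 0.05), their largest single differences being -0.33 and -0.39. In limma 2858 of all 14435 genes had an unadjusted p under 0.05. Of 41 ribosome biogenesis genes Nop16 (-0.53) and Nolc1 (-0.51) fell (median -0.10), and of 47 proteasome genes Psmd11 (-0.29, median -0.09). Aminoacyl-tRNA synthetases, which charge tRNAs and include targets of ATF4, had 3 of 20 lower (median -0.17). Tars fell from 199.97, 213 and 216 to 129.7, 128 and 127 (log2 fold change -0.70, SE 0.07, adjusted p = 0.00055). Aars fell from 199, 212 and 214 to 152, 177 and 161 (log2 fold change -0.35, SE 0.08, adjusted p = 0.0337) and Mars from 63.4, 65.5 and 64.4 to 48.5, 54.6 and 52.7 (log2 fold change -0.31, SE 0.08, adjusted p = 0.0494). Of 16 other settings, Nolc1 and Mars were each lost in 12, Aars and Psmd11 in 7, Nop16 in 5 and Rpl7l1 in 3.

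**Figure D4:**
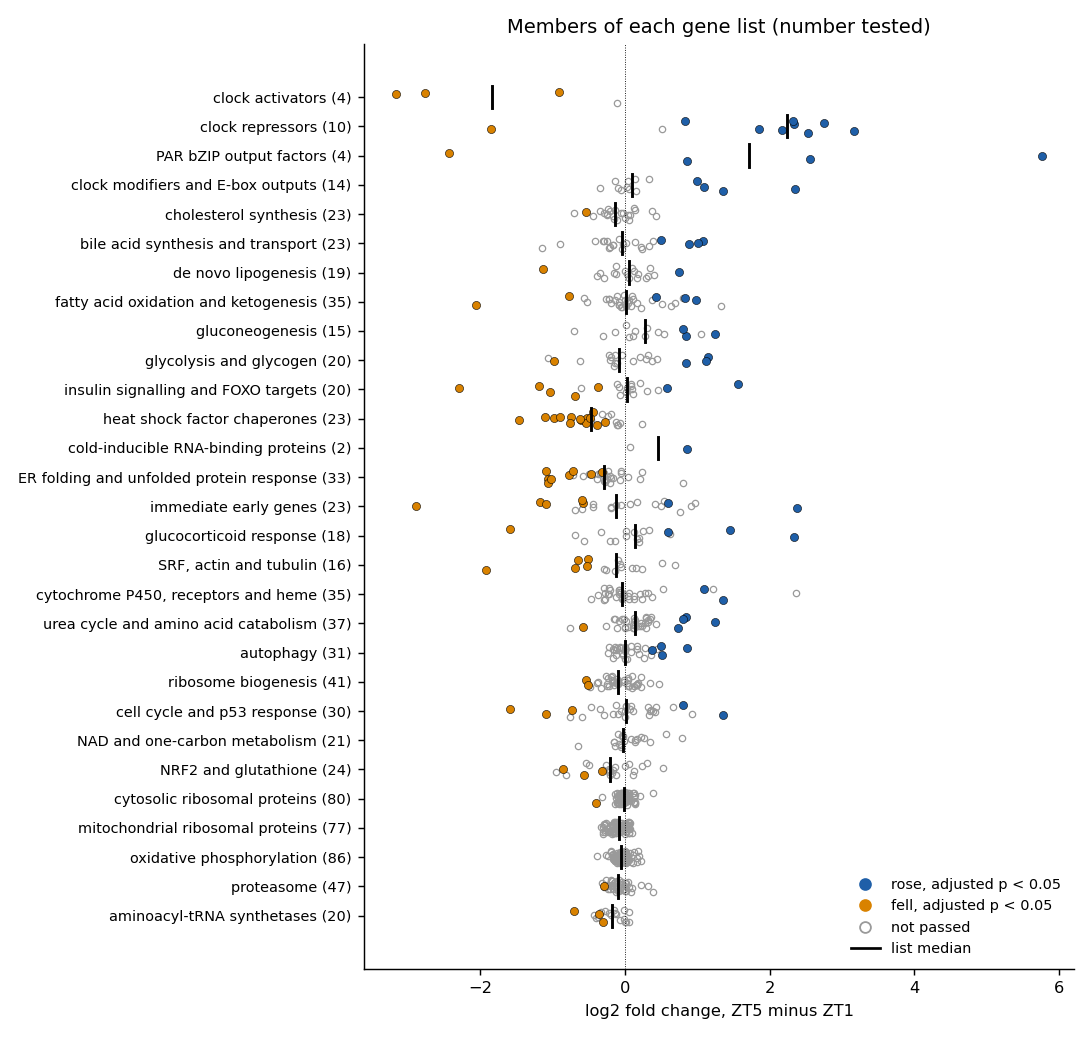
Log2 fold change between ZT5 and ZT1 of the members of 29 gene lists (1 dot per gene, number tested in brackets), filled in blue or orange where the member rose or fell past the threshold and open where it did not, with the list median as a bar. Clock repressors extend to the right and clock activators to the left, 22 of 23 chaperones lie left of 0, and the genes of oxidative phosphorylation lie between -0.39 and 0.22.

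The interval that begins 12 h later, from ZT13 to ZT17 in the early dark, shares no liver with this one. The difference of both changes was tested in the 12 livers of the 4 times. Of 14446 genes 1292 passed (8.94%), 643 with a more positive and 649 with a more negative change in early light, and 829 passed without ZT1 replicate 2. With every liver brought to the same total, 71.3% of the calls were more positive in early light, against 49.8%, and the median difference of all genes was 0.13. Within early dark alone, 172 genes passed. All 18 clock genes differed between the intervals. Dbp rose by 5.77 in early light and was at -2.21 in early dark (difference 7.97, SE 0.26, adjusted p = 5.2e-10), Nr1d1 was at 2.75 and -1.86 (difference 4.60, SE 0.35, adjusted p = 2.93e-06), and Arntl at -2.76 and 1.45 (difference -4.21, SE 0.36, adjusted p = 9.71e-06). Per2 and Rora, which did not pass in early light, had differences of 1.02 (adjusted p = 0.0486) and -0.48 (adjusted p = 0.0369).

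Outside the clock, the changes of 12 of 23 heat shock chaperones and of 16 of 33 ER folding genes differed between the intervals, against 8.94% of all genes. Their median changes in early dark were 0.07 and 0.16, against -0.47 and -0.28 in early light. The median differences between the intervals were -0.39 and -0.46. Those of the Kupffer cell and endothelial markers were larger in size, at 0.72 and 0.78, with medians of -0.38 for each in early dark, and their part in the result was not tested. Hsp90aa1 was at -1.10 against 0.38 (difference -1.47, SE 0.19, adjusted p = 0.000299) and Hyou1 at -1.07 against 0.27 (difference -1.33, SE 0.22, adjusted p = 0.00202). Hspa1b, an inducible HSP70, was the 1 gene that passed in both intervals in the same direction, at -0.98 and -1.94. It was named after its values were seen, and its reads may be shared with the nearly identical Hspa1a. In the opposite direction, 44 of the 14435 genes tested rose in early light and fell in early dark and 47 did the reverse. Of the 755 genes that passed in early light 582 differed between the intervals, a count that their selection by the same early light change favours.

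**Figure D5:**
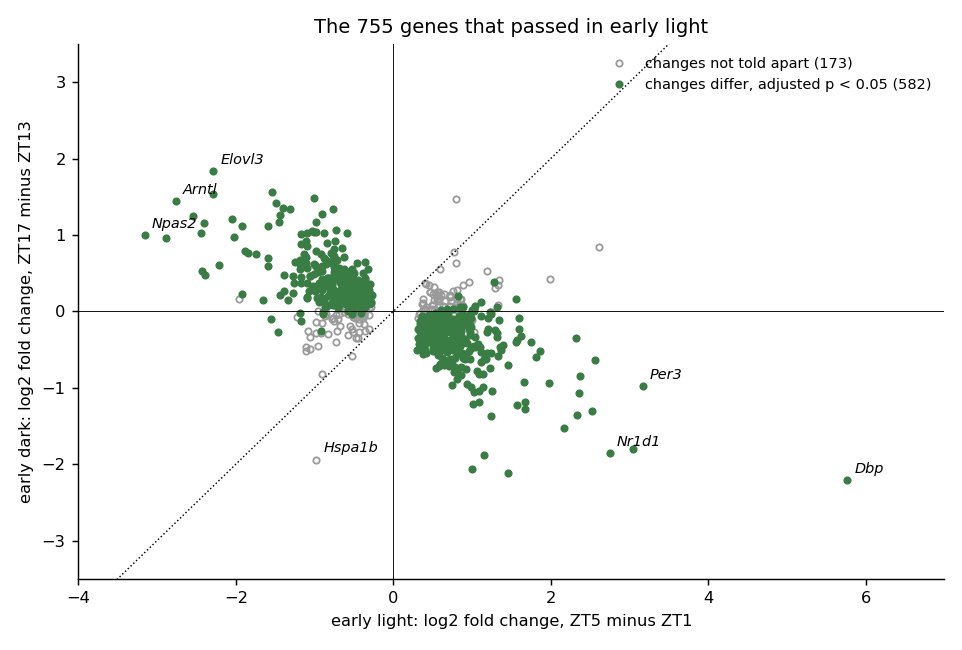
Change in early light (ZT5 minus ZT1, horizontal) against change in early dark (ZT17 minus ZT13, vertical), both as log2 fold changes, for the 755 genes that passed in early light. Filled dots mark the 582 genes whose changes differed, open dots the 173 others, and the dotted line equal changes. Dbp, Nr1d1 and Per3 lie far below the line, Elovl3, Arntl and Npas2 far above it, and Hspa1b falls in both.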

How the data were processed

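Polyadenylated RNA of whole mouse livers was sequenced as 50-nt single reads. The authors demultiplexed with CASAVA 1.8.2, trimmed with Cutadapt, mapped to the GRCm38 transcriptome of Ensembl, estimated counts with RSEM 1.2.20 and normalized with limma. The deposited signal is the estimated count plus 0.5 per 1000000 reads of an effective library size. Since only 39.1 to 48.0% of values gave whole reads, no count model was fitted. Labels gave the time of each liver. They number no replicates, so replicates were numbered in order within a time.

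ZT5 was compared with ZT1 on log2(value + 1) in 3 and 3 livers with limma 3.58.1 in R 4.3.3 (eBayes with a trend), with Benjamini–Hochberg adjustment over the 14435 genes above the lowest value in at least 1 of the 6 livers. The 4 h changes in early light and early dark were compared in the same way over 12 livers and 14446 genes. All tests were two-sided. The fits were tested on simulated data. Named were the clock activators, repressors and PAR bZIP genes, the 12 largest rises and 12 largest falls, and the 3 lowest p-values of each further list. A few members are not reported here. The comparison, lists and motifs were chosen with earlier results of these data known. Other settings were another pseudocount, filter, variance model, scaling or set of livers. Coordinates are from the GENCODE annotation of GRCm38, and promoters from RefSeq (GRCm38.p6).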

Additional observations from a re-analysis of the deposited data

Results flagged for a closer look

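Of the genes named, 24 passed in early light and in early dark in opposite directions, with a difference between the 4 h changes that itself passed (limma interaction over 12 livers, adjusted p under 0.05). Over all 14435 genes tested, 44 that rose in early light and 47 that fell did so. Large early light changes were part of the rule that named genes, which favours this count. The values here are the change from ZT1 to ZT5 minus that from ZT13 to ZT17, on the log2(value + 1) scale, and choosing genes for their early light change favours large values. Among the clock genes, Dbp was at 7.97, Nr1d1 at 4.60, Per3 at 4.14, Nr1d2 at 3.83, Per1 and Ciart at 3.69 each and Tef at 3.20. Arntl was at -4.21 and Cry1 at -2.61.

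Among outputs of the clock and of metabolism, Rgs16 was at 4.84, Usp2 at 3.42, Por at 2.28, Abcg8 at 2.23, Abcg5 at 2.13, Cpt1a at 1.97, Fads2 at 1.72, Ulk1 at 1.69, Gys2 at 1.65 and Bnip3 at 0.98. Genes that fell in early light and rose in early dark were Elovl3 (-4.13), Chka (-3.48), Tubb2a (-3.04), Insig2 (-1.89) and Tubb4b (-1.10). The 2 tubulin genes thus moved oppositely in the light and in the dark.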

How the results depend on the processing

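The counts of 386 higher and 369 lower genes were within 1.5 times of themselves with no pseudocount, a pseudocount of 0.1, a mean of at least 1, no filter, all 18 livers, quality weights, quantile normalization and thinned reads. Without the mean-variance trend they were 190 and 167, and with each liver scaled to the same total 663 were higher. Leaving out 1 liver gave 143 to 386 higher, 139 to 369 lower and 829 to 1179 genes that differed from early dark, the lowest counts without ZT1 replicate 2. The cause was not tested. Of the 124 genes named by rule 79 passed, and 55 of them passed in all 16 settings. The losses were most frequent without the trend (20 genes) and without ZT1 replicate 2 (20 genes). Among genes that did not pass, leaving out 1 liver turned the sign of Cirbp (-0.10 without ZT5 replicate 2 and -0.04 without ZT1 replicate 1, to 0.20), Epcam (-0.0032 without ZT1 replicate 1, to 0.29), Ptprc (-0.013 without ZT1 replicate 3, to 0.36) and Hbb-bt (-0.13 without ZT5 replicate 1, to 1.25). No paired analysis was possible because each whole liver is 1 mouse, so that no mouse was sampled at both times. With 3 livers per time, changes below about 0.27 on the log2 scale were not called, and the log2(value + 1) changes of genes on a few reads at ZT1 (Dbp, Ciart, Bhlhe41, Gm20547) depend on the pseudocount.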

Other observations

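Genes outside the rule and the lists were chosen after their values were seen. The hepcidin genes rose, Hamp, whose product limits iron release, from 329, 264 and 189 to 538, 598 and 846 (log2 fold change 1.35, SE 0.21, adjusted p = 0.00553) and its copy Hamp2 from 16.1, 20.4 and 25.5 to 74.7, 38.9 and 122 (log2 fold change 1.75, SE 0.33, adjusted p = 0.0164), and reads may be shared between the copies. Tfrc, the transferrin receptor, fell from 36.6, 28.6 and 43.8 to 19.1, 11.8 and 15.6 (log2 fold change -1.18, SE 0.19, adjusted p = 0.00625). Id1, a target of BMP signals, rose from 2.25, 2.14 and 1.58 to 6.61, 11.8 and 6.93 (log2 fold change 1.62, SE 0.22, adjusted p = 0.00316).

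Slc7a2, a carrier of arginine and lysine, had 217, 259 and 270.02 at ZT1 and 820.4, 722 and 665 at ZT5 (log2 fold change 1.56, SE 0.11, adjusted p = 9.81e-05). Slc38a3, which carries glutamine, had 872, 775 and 844 at ZT1 and 1867, 1547 and 1891 at ZT5 (log2 fold change 1.09, SE 0.11, adjusted p = 0.000743). Slc38a4, a related carrier, had 689, 779.99 and 765 at ZT1 and 1320.1, 1167 and 1153 at ZT5 (log2 fold change 0.70, SE 0.10, adjusted p = 0.00324). Upp2, the liver uridine phosphorylase, had 91.6, 89.3 and 90.5 at ZT1 and 348, 296 and 444 at ZT5 (log2 fold change 1.97, SE 0.13, adjusted p = 6.65e-05).

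Further large falls were those of Loxl4, a lysyl oxidase, with 8.89, 9.14 and 12.7 at ZT1 and 2.07, 1.45 and 1.69 at ZT5 (log2 fold change -2.03, SE 0.18, adjusted p = 0.00041), and of Irf2bp2, a transcriptional corepressor, with 49.4, 74.4 and 88.2 at ZT1 and 18.3, 21.8 and 13.1 at ZT5 (log2 fold change -1.93, SE 0.22, adjusted p = 0.0013). Clpx, the unfoldase of the mitochondrial ClpXP protease, had 344, 372 and 356 at ZT1 and 137, 118 and 102 at ZT5 (log2 fold change -1.59, SE 0.10, adjusted p = 6.75e-05). Neat1, the noncoding RNA of paraspeckles, had 146, 199 and 175 at ZT1 and 63.8, 84.2 and 117 at ZT5 (log2 fold change -0.99, SE 0.19, adjusted p = 0.0177).

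ZT5 replicate 1 stood apart in genes that did not pass. The summed level of the 20 Mup genes was 86196, 66861 and 71511 at ZT1 and 25256, 71286 and 41975 at ZT5, and without them the sums of all values were 919459 to 958305 at ZT1 and 897732 to 925848 at ZT5. Mup7 had 22830, 15472 and 15201 at ZT1 and 1086, 16270 and 4158 at ZT5 (log2 fold change -2.06, SE 0.75, adjusted p = 0.158), and single Mup genes are uncertain because the copies are nearly identical. Cyp2a4 was at 88.4 in ZT5 replicate 1 and at 0.0364 to 6.998 in the other 17 livers, and Esm1, which endothelium secretes, at 7.86 against 0.170 to 1.44. Cyp7b1, an oxysterol hydroxylase, had 279, 219.8 and 187 at ZT1 and 57.1, 214 and 84.98 at ZT5 (log2 fold change -1.14, SE 0.38, adjusted p = 0.124).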
